A study of Mus musculus with 19 samples.

Results

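The transcripts of the ionotropic glutamate receptors of the AMPA and kainate classes were compared between ipsilaterally and contralaterally projecting retinal ganglion cells (iRGCs and cRGCs). The 9 genes were the rows of the count tables whose Ensembl identifiers belong, in the GRCm38 annotation, to the AMPA receptor subunits Gria1 to Gria4 and the kainate receptor subunits Grik1 to Grik5. They are 9 of the 47069 genes listed, and all 9 passed the filter on low counts, as did 15941 genes in all. The libraries held poly(A) RNA of GFP-positive cells sorted from retinas of C57/DBA F1 embryos at E16.5, pooled from males and females, with the genotype label WT for both populations. The paper itself names C57/DBA F1 hybrids only for its electroporated embryos. In both populations, a Cre-dependent cassette in the Rosa26 locus made Sun1-GFP, a tagged protein of the nuclear envelope, in every cell that had expressed Cre and in its descendants. The iRGC samples came from the driver Slc6a4-Cre (Sert), and the cRGC samples from the driver Pou4f2-Cre (Brn3b), which was made by targeting the Pou4f2 locus, after removal of the ventrotemporal region of the retina. There were 3 libraries per population. The sources used here do not say that the libraries of a population came from separate litters, so the p-values measure only the spread between these samples. The comparison addresses how the transcriptomes of both populations differ at the age when most of their axons reach the optic chiasm.

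AMPA and kainate receptors are tetrameric cation channels that open when glutamate binds, and they carry most of the fast excitatory transmission of the retina and brain. In the mature retina, ganglion cells receive glutamate from bipolar cells mainly through AMPA receptors and NMDA receptors, and they release glutamate themselves onto their targets. At the embryonic age sampled here the ganglion cells are still growing axons and the bipolar cells that will drive them are largely not yet born, so that receptor transcripts precede most of the synapses. AMPA receptors assemble from the products of Gria1 to Gria4 (GluA1 to GluA4). Kainate receptors assemble from the low-affinity subunits of Grik1 to Grik3 (GluK1 to GluK3), which can form channels on their own, and the high-affinity subunits of Grik4 and Grik5 (GluK4 and GluK5), which need a partner from the first group.

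The subunits share a pore loop whose tip faces the ion path, and the codon at that tip carries much of what distinguishes their channels. In the RNA of Gria2, and to a smaller extent of Grik1 and Grik2, adenosine deaminases change this glutamine codon so that it is read as arginine, which blocks the entry of calcium. The stretch around the codon is printed for each subunit because the deaminases are among the genes measured below. It was read from the GRCm38 genome on the coding strand, 5′ to 3′, with the glutamine codon in capitals.
Gria1 (chr11:57243064-57243119, plus strand): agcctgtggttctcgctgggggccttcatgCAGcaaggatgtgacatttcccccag
Gria2 (chr3:80706888-80706943, minus strand): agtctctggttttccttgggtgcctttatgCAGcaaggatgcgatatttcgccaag
Gria3 (chrX:41610235-41610290, plus strand): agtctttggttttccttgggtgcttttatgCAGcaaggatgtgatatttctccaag
Gria4 (chr9:4464114-4464169, minus strand): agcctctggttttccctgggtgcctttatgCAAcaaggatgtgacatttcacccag
Grik1 (chr16:87940538-87940574, minus strand): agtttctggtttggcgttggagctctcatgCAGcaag
Grik2 (chr10:49244325-49244361, minus strand): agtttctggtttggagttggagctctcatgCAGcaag
Grik3 (chr4:125691177-125691213, plus strand): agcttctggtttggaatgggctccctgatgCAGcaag
Grik4 (chr9:42547593-42547655, minus strand): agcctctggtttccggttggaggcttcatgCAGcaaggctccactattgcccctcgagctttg
Grik5 (chr7:25022467-25022529, minus strand): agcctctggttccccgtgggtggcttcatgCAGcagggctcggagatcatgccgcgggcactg
The genomic codon was CAG in 8 of the 9 genes and CAA in Gria4. Over the 37 bases that all windows hold, Grik1 and Grik2 had 36 identical bases, Gria2 and Gria3 had 35, Gria2 and Gria4 had 34, and Gria1 and Grik2 had 25. The counts are per gene and say nothing about which form of the codon the RNA carried. They were made from uniquely aligned reads, and the annotated exons of each of the 9 genes shared at most 0.99% of their bases with another gene.

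Library content was checked before the receptors. Per library, 28193178, 29759011 and 30874653 reads were counted on genes in iRGC replicates 1, 2 and 3, and 28274471, 30454674 and 33638083 in cRGC replicates 1, 2 and 3. Levels below are given as CPM, the reads of a gene scaled to the size of its library, with edgeR's TMM scaling, which assumes that most genes do not differ between the libraries. Slc6a4, the serotonin transporter gene whose promoter drives Cre in the iRGC line, had 2.06, 33.4 and 116 CPM in iRGC replicates 1, 2 and 3 and 48.1, 35.4 and 30.5 CPM in cRGC replicates 1, 2 and 3, so iRGC replicate 1 was the lowest of the 6 libraries for its own marker. It was not called between the populations (log2 fold change of 0.41 ± 0.929, edgeR adjusted p = 0.768). Zic2, the transcription factor that directs the ipsilateral course, had 134, 173 and 157 CPM in iRGCs and 57.0, 60.2 and 65.7 CPM in cRGCs. Of 15 markers of ganglion cells, 13 were lower in iRGCs, 1 was higher (Atoh7) and 1 was not called (Thy1). Rbpms, a marker of all ganglion cells, had 78.7, 109 and 171 CPM in iRGCs and 550, 431 and 452 CPM in cRGCs. All 12 pan-neuronal genes listed, among them Tubb3, Stmn2 and Dcx, were lower in iRGCs, with a median log2 fold change of -1.78. Of 18 markers of retinal progenitors, 16 were higher in iRGCs, 1 was lower (Six3) and 1 was not called (Pax6), with a median log2 fold change of 2.43. These marker counts hold for TMM scaling, where 23.1% of all tested genes were lower in iRGCs and 23.3% higher. Scaled on the pan-neuronal genes, as described below, 1 ganglion cell marker was lower, 2 were higher and 12 were not called. Elavl4 and Gap43 are in the ganglion cell list and also in the list used for that scaling, so their results on it were partly set in advance. All 18 progenitor markers were higher on that scaling, as were 77.9% of all tested genes. The progenitor markers summed to 11410, 10200 and 9102 CPM in iRGC replicates 1, 2 and 3 and 2397, 3608 and 3011 CPM in cRGC replicates 1, 2 and 3, with Ccnd1 the most abundant. The 15 ganglion cell markers summed to 2224, 3159 and 4593 CPM in iRGCs and 11820, 10550 and 13150 CPM in cRGCs. In every iRGC library the progenitor sum was thus above the ganglion cell sum, and in every cRGC library below it, so the name iRGC is used here for the sorted Slc6a4-Cre population and not for a pure cell type. Pericyte and smooth muscle markers summed to 135, 277 and 120 CPM in iRGCs and 20.8, 31.8 and 23.1 CPM in cRGCs, and those of red blood cells to 12.2, 92.7 and 15.2 CPM and 0, 5.11 and 0.291 CPM, so that iRGC replicate 2 stood apart in both. Notch3 alone gave 113, 117 and 83.5 CPM of the first sum in iRGCs and 17.1, 26.7 and 18.6 CPM in cRGCs, while the pericyte marker Rgs5 had 3.76, 93.8 and 2.24 CPM in iRGCs. The part that these differences in content have in the receptor values was not tested, and in RNA of sorted populations fewer cells of a type and less RNA per cell cannot be told apart.

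Transcripts of 8 of the 9 receptor genes were lower in iRGCs than in cRGCs, and 0 were higher (edgeR's quasi-likelihood test, Benjamini-Hochberg adjusted p under 0.1). These counts hold for TMM scaling, and scaled on pan-neuronal genes, as described below, 1 member was lower and 5 were higher. On that scaling 0.445% of all tested genes were lower and 77.9% higher. The AMPA subunit genes Gria1, Gria2 and Gria4 had the largest differences among the well-expressed members, at 5.26-fold, 3.72-fold and 2.67-fold, and the kainate subunit gene Grik3 the smallest, at 1.06-fold, which was not called. Among all 15941 tested genes, 46.4% were called under TMM scaling, with 23.1% lower and 23.3% higher. At an unadjusted p under 0.05 the number of higher members was also 0, as it was with DESeq2 and with limma. The libraries of the populations did not overlap for 8 of the 9 members, each lower in iRGCs, where 28.2% of all tested genes were lower without overlap and 55.3% did not overlap in either direction. The median log2 fold change was -1.05 over the 9 members and -0.0031 over all tested genes. The count of lower members was 8 without iRGC replicate 1 or 3, 7 without iRGC replicate 2, cRGC replicate 1 or cRGC replicate 2, and 6 without cRGC replicate 3.

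**Figure D1:**
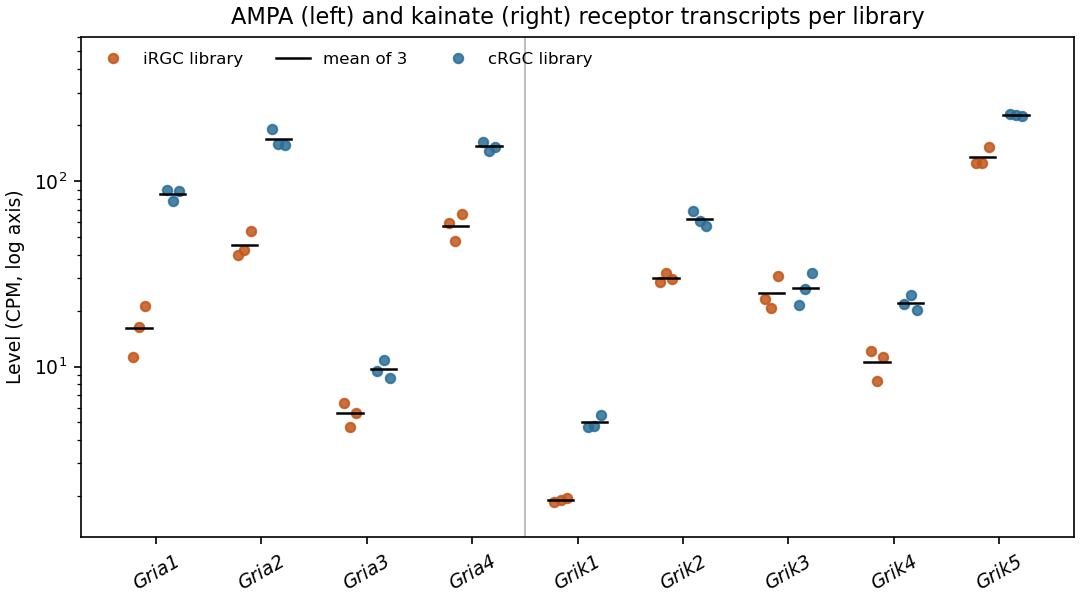
Transcript level (CPM, log axis) of the 4 AMPA and 5 kainate receptor genes in each of the 3 iRGC libraries (orange) and 3 cRGC libraries (blue), with the mean of each population as a black line. The iRGC points lie below all cRGC points for every gene but Grik3, whose points mix.

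Gria1 encodes GluA1, a subunit that forms calcium-permeable channels when it assembles without GluA2. Its level was 11.2, 16.3 and 21.1 CPM in iRGC replicates 1, 2 and 3 and 89.2, 78.2 and 88.1 CPM in cRGC replicates 1, 2 and 3. The highest iRGC library was far below the lowest cRGC library, and the iRGC libraries spread more than the cRGC libraries relative to their mean. Its log2 fold change was -2.39 ± 0.219 (SE, n = 3 and 3, edgeR adjusted p = 0.000205), the largest of the 9. Without iRGC replicate 1, which had its lowest level, the log2 fold change was -2.19.

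Gria2 encodes GluA2, the subunit that makes edited AMPA receptors impermeable to calcium. Its level was 39.8, 42.7 and 53.5 CPM in iRGCs and 191, 159 and 156 CPM in cRGCs. The populations were separated by a wide gap. The log2 fold change was -1.90 ± 0.148 (edgeR adjusted p = 0.000205).

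Gria4 encodes GluA4, a subunit of fast channels that is prominent in developing neurons. Its level was 59.1, 47.5 and 66.2 CPM in iRGCs and 163, 146 and 152 CPM in cRGCs. All 3 iRGC libraries lay far below all 3 cRGC libraries. The log2 fold change was -1.42 ± 0.139 (edgeR adjusted p = 0.000218).

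Gria3, on the X chromosome, encodes GluA3 and was the least abundant AMPA subunit. Its level was 6.37, 4.73 and 5.64 CPM in iRGCs and 9.42, 10.8 and 8.68 CPM in cRGCs. The libraries did not overlap, but the gap between the nearest of them was small. The log2 fold change was -0.79 ± 0.274 (edgeR adjusted p = 0.0472). This call was the least stable of the 8, since it was lost without iRGC replicate 2 (adjusted p = 0.114 in edgeR), without cRGC replicate 1, 2 or 3 (0.104, 0.194 and 0.1) and with no filter on low counts (0.123).

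Among the kainate receptor genes, Grik5, which encodes the high-affinity subunit GluK5, had the highest counts. Its level was 126, 125 and 152 CPM in iRGCs and 230, 227 and 225 CPM in cRGCs. The cRGC libraries were nearly equal, and all lay above the iRGC libraries. The log2 fold change was -0.76 ± 0.11 (edgeR adjusted p = 0.000804). Grik4, which encodes the other high-affinity subunit GluK4, had 12.2, 8.32 and 11.3 CPM in iRGCs and 21.8, 24.2 and 20.1 CPM in cRGCs, again without overlap, and its log2 fold change was -1.05 ± 0.210 (edgeR adjusted p = 0.00392).

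Grik2 encodes GluK2, the low-affinity subunit most widely found in the central nervous system. Its level was 28.5, 32.0 and 29.5 CPM in iRGCs and 68.6, 61.0 and 57.1 CPM in cRGCs. The iRGC libraries lay close together, at a mean 2.07-fold below that of the cRGC libraries, and the log2 fold change was -1.05 ± 0.129 (edgeR adjusted p = 0.000403). Grik1, which encodes GluK1, was near the lower end of what was counted, with 58, 62 and 62 reads in iRGCs and 122, 139 and 170 reads in cRGCs. This corresponded to 1.87, 1.92 and 1.96 CPM in iRGCs and 4.69, 4.80 and 5.49 CPM in cRGCs, without overlap. The log2 fold change was -1.38 ± 0.416 (edgeR adjusted p = 0.0272), and it was not called without cRGC replicate 3 (log2 fold change of -1.30, adjusted p = 0.114).

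Grik3, which encodes GluK3, was the member that was not called. Its level was 23.0, 20.7 and 30.7 CPM in iRGCs and 21.3, 26.0 and 31.8 CPM in cRGCs. The libraries of the populations were interleaved, with means of 24.8 ± 5.25 CPM and 26.4 ± 5.24 CPM (SD, n = 3 each). The log2 fold change was -0.09 ± 0.214 (edgeR adjusted p = 0.781).

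Levels of different subunits were compared per kilobase (kb) of annotated exon. On this scale the order in cRGCs was Grik5 at 43.96 CPM per kb, Gria4 at 24.4, Gria1 at 14.1, Gria2 at 10.9, Grik2 at 4.70, Grik4 at 3.69, Grik3 at 2.94, Gria3 at 0.978 and Grik1 at 0.743. Neighbours in this order overlapped in their libraries only for Grik4 and Grik3. In iRGCs, Grik5 at 25.97 CPM per kb and Gria4 at 9.13 again came first. Gria2 at 2.92, Grik3 at 2.76, Gria1 at 2.68 and Grik2 at 2.27 followed, and each of these overlapped the next. Grik4 at 1.78 lay below Grik2 without overlap, but it overlapped Gria1. The highest Grik4 library was at 2.04 and the lowest Gria1 library at 1.85. Gria3 at 0.566 and Grik1 at 0.285 stood apart below all of these. Gria1 was thus clearly above Grik3 in cRGCs, while the libraries of both genes overlapped in iRGCs. Part of the order rests on the length used, since with the longest coding transcript in place of all exons Gria2 was above Gria1 in cRGCs, at 16.3 and 15.4 CPM per kb. In iRGCs that length put Grik2, at 3.18 CPM per kb, above Gria1 at 2.92 and Grik3 at 2.76.

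The subunit makeup of the AMPA receptor transcripts was compared within each library, which does not depend on the scaling between libraries. Gria1 made up 12.8%, 20.1% and 19.4% of the AMPA transcripts per kb in iRGCs and 27.4%, 27.3% and 29.4% in cRGCs. Gria4 made up 65.0%, 56.0% and 58.3% in iRGCs and 48.0%, 48.8% and 48.7% in cRGCs. The Gria1 share was lower and the Gria4 share higher in all 3 iRGC libraries. The Gria2 share was 17.7%, 20.4% and 19.1% in iRGCs and 22.8%, 21.6% and 20.2% in cRGCs, so that the highest iRGC library was above the lowest cRGC library. Gria3 was a minor part of both, at 3.74% ± 0.667 in iRGCs and 1.95% ± 0.313 in cRGCs (SD, n = 3 each), without overlap. For Gria1, Gria3 and Gria4 the two-sided exact permutation p was 0.1, the smallest that 3 libraries against 3 can give, and for Gria2 it was 0.2. Adjusted by Benjamini-Hochberg over the 9 shares these exact p-values were 0.18 and 0.257.

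**Figure D2:**
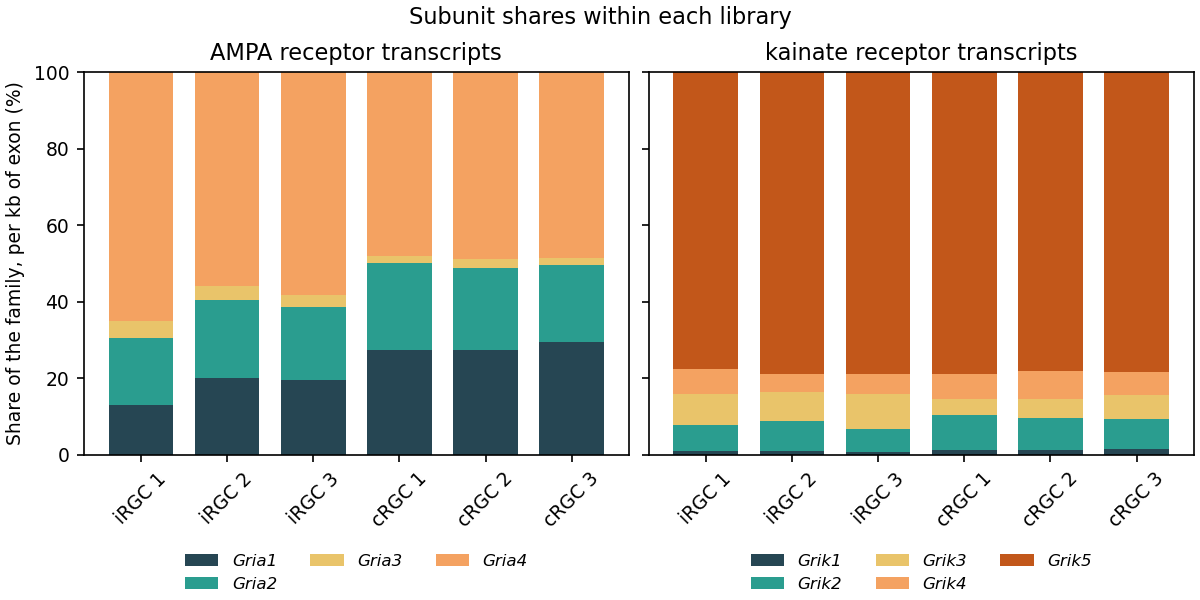
Share of each subunit gene (%) in the AMPA receptor transcripts (left) and the kainate receptor transcripts (right) of each library, from CPM per kb of exon. Gria1 takes a smaller part in the 3 iRGC bars than in the 3 cRGC bars and Gria4 a larger part, while Grik5 takes between 77.6% and 79.1% of every kainate bar.

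Within the kainate transcripts the share of Grik5 was 78.5% ± 0.817 in iRGCs and 78.5% ± 0.407 in cRGCs, a difference of 0.0741 percentage points (exact permutation p = 0.8). The share of Grik3 was 8.17%, 7.54% and 9.19% in iRGCs and 4.21%, 5.17% and 6.38% in cRGCs, higher in every iRGC library (exact permutation p = 0.1, and 0.18 adjusted over the 9 shares). The share of Grik1 was 0.866% ± 0.0780 in iRGCs and 1.33% ± 0.127 in cRGCs, the opposite direction, without overlap and with the same exact p. The shares of Grik2 (6.92% in iRGCs and 8.38% in cRGCs) and Grik4 (5.39% and 6.59%) overlapped between the populations, with exact permutation p-values of 0.2 and 0.3. The Grik2 difference was -1.46 percentage points, and -3.12 with counts not divided by length. That of Grik4 was -1.2, and it was -1.76 without iRGC replicate 1 and -0.788 without iRGC replicate 2.

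The balance between the classes differed between the populations in every library. Summed per kb, the AMPA transcripts were at 14.4, 13.5 and 18.0 CPM per kb in iRGCs and 53.9, 47.5 and 49.6 in cRGCs, and the kainate transcripts at 31.4, 30.6 and 37.3 CPM per kb in iRGCs and 56.5, 56.1 and 55.5 in cRGCs. The AMPA sum was 3.29-fold higher in cRGCs and the kainate sum 1.69-fold higher. The ratio of kainate to AMPA transcripts was 2.18, 2.27 and 2.07 in iRGCs and 1.05, 1.18 and 1.12 in cRGCs. The means were 2.17 ± 0.100 and 1.12 ± 0.0673 (SD, n = 3 each), and the two-sided exact permutation p of 0.1 was the smallest possible. The difference in the ratio was 1.05 without iRGC replicate 1 and 1.01 without iRGC replicate 2, against 1.06 with all libraries.

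**Figure D3:**
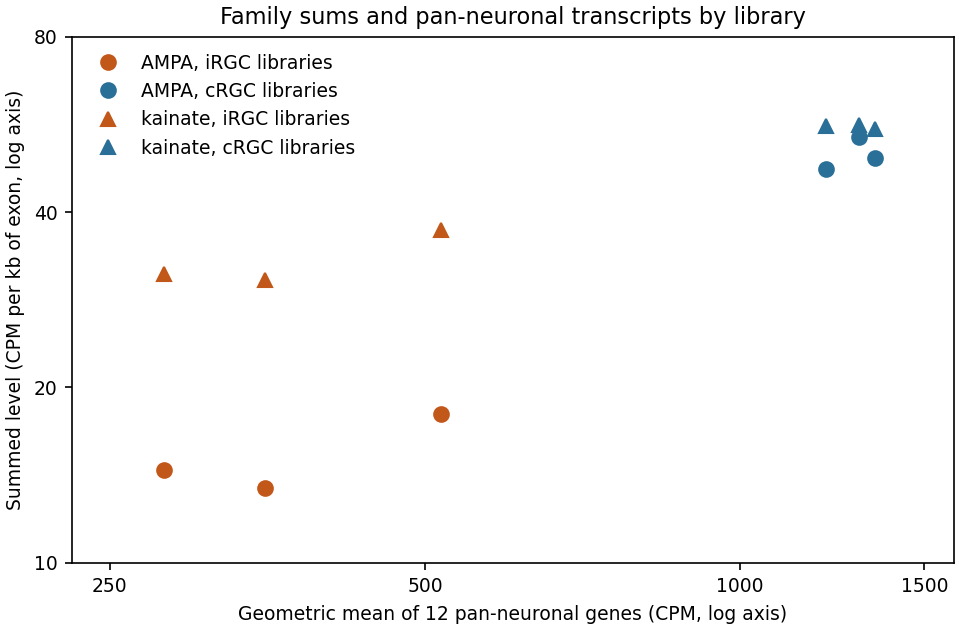
Summed AMPA (circles) and kainate (triangles) receptor transcripts per library, in CPM per kb of exon, against the geometric mean of 12 pan-neuronal genes in CPM, both on log axes. The 3 iRGC libraries (orange) lie at 282 to 519 CPM of the pan-neuronal genes with the kainate sum well above the AMPA sum, and the 3 cRGC libraries (blue) lie at 1208 to 1347 CPM with both sums close together.

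Because the pan-neuronal genes differed between the populations too, the receptor genes were also set against them. The geometric mean of the 12 genes was 282, 352 and 519 CPM in iRGCs and 1299, 1208 and 1347 CPM in cRGCs, a 3.35-fold difference of the means, close in size to that of the AMPA sum. Relative to that mean, Gria1 stood at 3.97%, 4.64% and 4.07% in iRGCs and 6.87%, 6.47% and 6.54% in cRGCs. Gria2 stood at 14.1%, 12.1% and 10.3% in iRGCs and 14.7%, 13.2% and 11.6% in cRGCs. Gria1 stayed lower in every iRGC library, while Gria2 overlapped. Grik5 stood at 44.7%, 35.5% and 29.3% in iRGCs and 17.7%, 18.8% and 16.7% in cRGCs, and Grik3 at 8.17%, 5.88% and 5.92% in iRGCs and 1.64%, 2.15% and 2.36% in cRGCs. These subunits were higher in every iRGC library on this scale.

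Scaled on the pan-neuronal genes in place of TMM, the fit over all genes gave other directions for most members, since this scaling moved the median log2 fold change of all tested genes from -0.0031 to 1.82. Gria1 was the member still lower in iRGCs (log2 fold change of -0.65 ± 0.267, edgeR adjusted p = 0.0364). Gria2, Gria4, Grik1 and Grik4 had log2 fold changes of -0.11, 0.39, 0.44 and 0.78, of which Grik4 was called higher (edgeR adjusted p = 0.0556). Gria3, Grik2, Grik3 and Grik5 were called higher too, at log2 fold changes of 1.05, 0.77, 1.70 and 1.04. In this scaling 77.9% of all tested genes were called higher and 0.445% lower, so that 5 members were called higher and 1 lower. Gria1 was lowest by fold change and Grik3 highest, as in the TMM fit. A change of scaling moves all genes by nearly the same amount, so this order could hardly change. The data do not tell which scaling is nearer to the amount of transcript per ganglion cell.

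**Figure D4:**
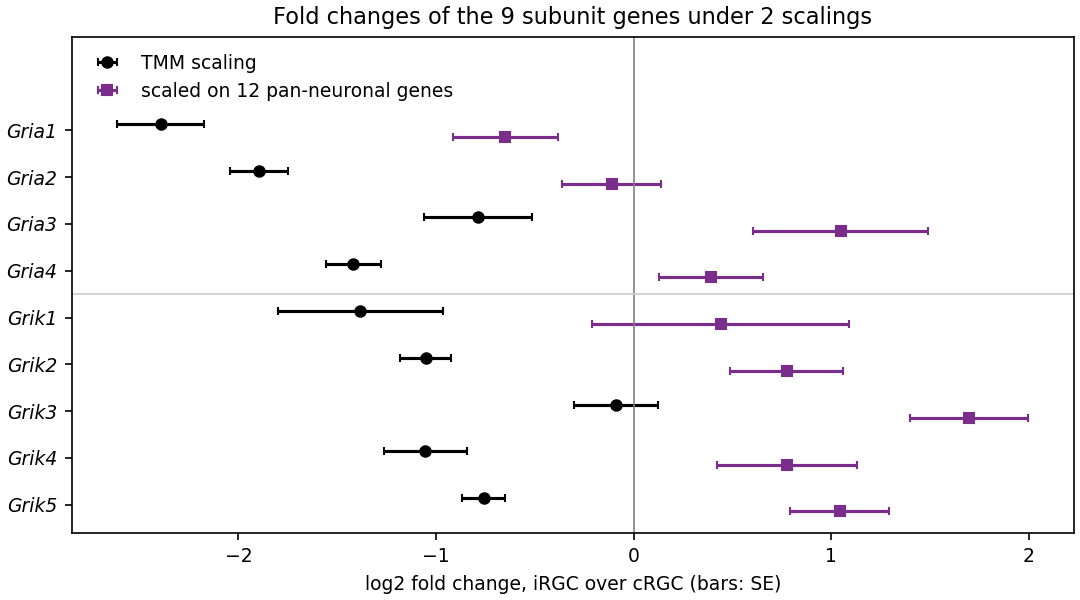
Log2 fold change of each subunit gene, iRGCs over cRGCs, with its SE as a bar, under TMM scaling (black circles) and scaled on 12 pan-neuronal genes (purple squares). Gria1 is lowest and Grik3 highest under both, since a change of scaling moves all genes by nearly the same amount. The members other than Gria1 and Gria2 lie above 0 under the pan-neuronal scaling.

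The genes that serve these receptors were taken from 8 lists by role, with 53 genes of which 52 were tested. In all, 33 were lower in iRGCs, 7 were higher and 12 were not called, and their median log2 fold change was -0.81. The shares of all tested genes were the 23.1% and 23.3% given above. These counts hold for TMM scaling. On the pan-neuronal scaling 0 of the 52 were called lower and 31 higher, where 0.445% of all tested genes were called lower and 77.9% higher.

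**Figure D5:**
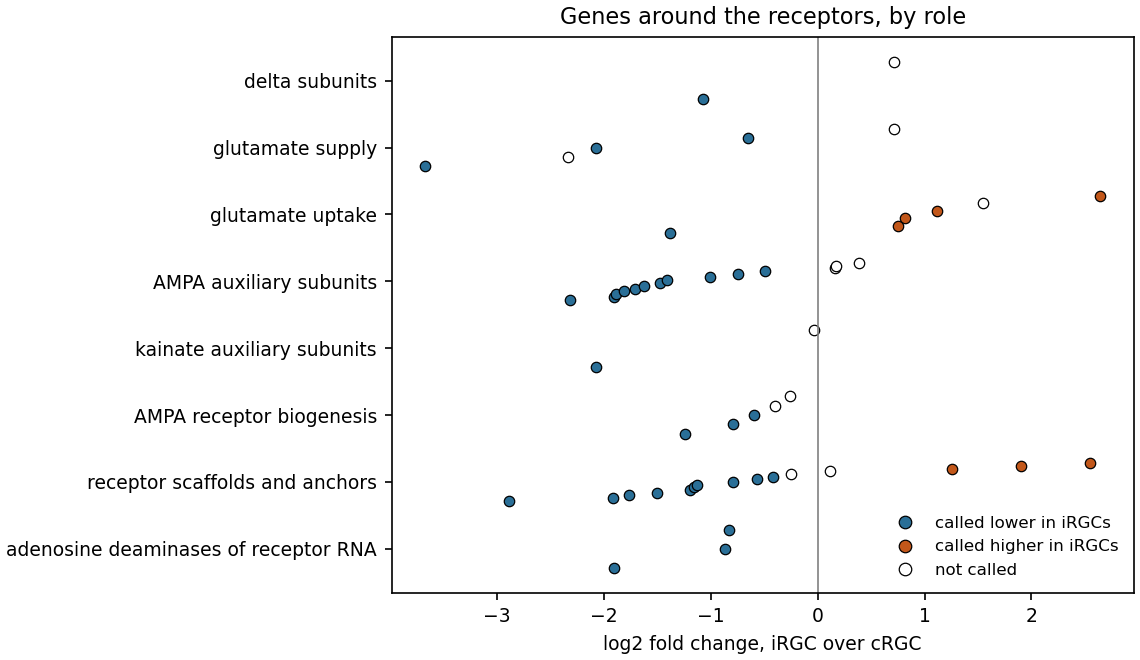
Log2 fold change, iRGCs over cRGCs under TMM scaling, of each tested gene in the 8 role lists, with blue for genes called lower in iRGCs, orange for genes called higher and white for genes not called. The auxiliary subunits lie mostly at the left, and the uptake genes mostly at the right.

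On the side of glutamate supply, 3 of 5 genes were lower and 0 were higher. Slc17a6, the vesicular transporter VGLUT2 that fills synaptic vesicles of ganglion cells with glutamate, had 37.2, 40.2 and 50.7 CPM in iRGCs and 191, 190 and 157 CPM in cRGCs. The libraries of the populations were widely separated, with a log2 fold change of -2.07 ± 0.150 (edgeR adjusted p = 0.000201). Slc17a8, the vesicular transporter VGLUT3, was listed at 0, 0.371 and 0.315 CPM in iRGCs and 3.00, 2.45 and 3.45 CPM in cRGCs. Of the 6 genes of glutamate uptake and recycling, 4 were higher and 1 was lower. Slc1a3, the transporter GLAST of radial glia, progenitors and Müller glia, had 202, 147 and 175 CPM in iRGCs and 19.2, 41.0 and 23.7 CPM in cRGCs, with a log2 fold change of 2.64 ± 0.272 (edgeR adjusted p = 0.000238). The transporters Slc1a6 and Slc1a2 and the glutamine synthetase gene Glul were higher at log2 fold changes of 1.12, 0.75 and 0.82. Slc1a1, the neuronal transporter EAAC1, was lower at -1.38 (edgeR adjusted p = 0.0622), and 31.9% of its exonic bases are shared with a gene on the other strand. The strand setting of the counting is not given, so how reads from those bases were counted is not known.

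Auxiliary subunits of AMPA receptors, which set the trafficking and gating of the channels, were lower for 11 of 14 genes, higher for 0, and their median log2 fold change was -1.44. The largest differences were those of Prrt1 (-2.32), Cnih2 (-1.91), Shisa7 (-1.88) and Cacng5 (-1.81), which encode a proline-rich membrane protein, a cornichon, a Shisa protein and a transmembrane AMPA receptor regulatory protein (TARP). Cnih2 had 20.7, 31.2 and 56.5 CPM in iRGCs and 136, 135 and 137 CPM in cRGCs, so that its iRGC libraries differed among themselves while its cRGC libraries were nearly equal. Cacng4, the TARP with the highest counts, had 241, 216 and 317 CPM in iRGCs and 538, 482 and 538 CPM in cRGCs. The 3 genes not called, Cnih3, Shisa8 and Shisa9, were at most at 2.33 CPM in every library. For kainate receptors, the auxiliary subunit gene Neto1 had 0.740, 2.81 and 6.12 CPM in iRGCs and 10.8, 10.9 and 19.0 CPM in cRGCs, with a log2 fold change of -2.08 ± 0.635 (edgeR adjusted p = 0.0290). It was not called without cRGC replicate 3 (log2 fold change of -1.77, edgeR adjusted p = 0.105), and its log2 fold change was -2.94 without iRGC replicate 3 and -1.61 without iRGC replicate 1. Its partner gene Neto2 was at 77.8, 61.0 and 71.9 CPM in iRGCs and 71.5, 82.7 and 62.1 CPM in cRGCs, overlapping and not called (log2 fold change of -0.04, edgeR adjusted p = 0.870). Like Grik3, Neto2 thus had libraries of both populations interleaved under TMM scaling.

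Genes of AMPA receptor assembly in the endoplasmic reticulum were lower for 3 of 5 and higher for 0, namely Porcn at a log2 fold change of -1.25, Frrs1l at -0.79 and Cpt1c at -0.59. Among 15 tested scaffold and anchor genes, 10 were lower and 3 were higher. The lower ones with the largest differences were Grip2 (-2.88), which binds the tail of GluA2 and GluA3, Epb41l1 (-1.92), a cytoskeletal anchor, Nptxr (-1.77), the receptor of neuronal pentraxins, and Dlg2 (-1.51), a postsynaptic density scaffold also known as PSD-93. The higher ones were Nptx2 (2.54), a secreted pentraxin that clusters AMPA receptors, Arc (1.90), which drives their endocytosis, and Dlg1 (1.26), also known as SAP97, which is found in many epithelia as well. Nptx2 had 19.5, 9.30 and 38.5 CPM in iRGCs and 4.34, 4.83 and 2.36 CPM in cRGCs, and Arc had 8.81, 17.5 and 11.1 CPM in iRGCs and 0.923, 4.28 and 4.74 CPM in cRGCs, both without overlap and with a wide spread.

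The adenosine deaminases were lower in all 3 cases. Adarb1, which encodes ADAR2, the enzyme that edits the pore codon of Gria2 printed above, had 34.8, 29.5 and 40.5 CPM in iRGCs and 76.9, 64.5 and 44.8 CPM in cRGCs. Its highest iRGC library came near its lowest cRGC library, and its log2 fold change was -0.83 ± 0.209 (edgeR adjusted p = 0.0122), against -1.90 for its substrate Gria2. Adar, which encodes ADAR1, had a log2 fold change of -0.87 ± 0.116 (edgeR adjusted p = 0.000556), and 16.8% of its exonic bases are shared with Chrnb2 on the other strand. Adarb2, which encodes ADAR3, a protein of the brain without known editing activity, had 8.20, 14.7 and 8.20 CPM in iRGCs and 44.3, 28.1 and 44.3 CPM in cRGCs, with a log2 fold change of -1.91 ± 0.289 (edgeR adjusted p = 0.000989).

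The delta subunit gene Grid1 is related to both receptor classes in sequence, and its product acts as an adhesion receptor rather than as a glutamate-gated channel. Its level was 10.2, 10.4 and 12.4 CPM in iRGCs and 27.8, 24.4 and 17.2 CPM in cRGCs. The libraries did not overlap, and it was lower in iRGCs, with a log2 fold change of -1.07 ± 0.225 (edgeR adjusted p = 0.00506).

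Promoter sequences of 6 members (Gria2, Gria4, Grik2, Grik3, Grik4 and Grik5) were found in RefSeq on GRCm38.p6, each from 250 bases before to 50 bases after the annotated start. Their GC content was 59.7% to 82.0%, against a median of 52.7% over 32851 promoters. The motif GGGCGG, the core of sites for Sp factors, was found on either strand 7 times in Grik3, 2 times each in Grik4 and Grik5, and 0 times in Gria2, Gria4 and Grik2, and 35.7% of all promoters hold it. The promoters of Gria2, the member with the largest difference among the 6, and of Grik3, the member that was not called, are shown over the 150 bases before the start, with GGGCGG on either strand in capitals.
Gria2 (chr3:80802836-80802985, minus strand): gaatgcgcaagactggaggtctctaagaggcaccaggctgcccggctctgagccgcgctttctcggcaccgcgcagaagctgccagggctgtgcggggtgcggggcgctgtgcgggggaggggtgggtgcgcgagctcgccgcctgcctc
Grik3 (chr4:125490546-125490695, plus strand): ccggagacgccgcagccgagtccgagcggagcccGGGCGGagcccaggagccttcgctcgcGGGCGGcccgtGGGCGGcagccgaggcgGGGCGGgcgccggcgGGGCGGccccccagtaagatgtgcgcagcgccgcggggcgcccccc
The stretch of Gria2 held 0 copies at a GC content of 72% and that of Grik3 held 5 at 84%. None of the 6 promoters held TAATTA (5.29% of all promoters), a core of sites for LIM homeodomain factors, TATAAA (13.6%), the TATA box, the consensus site of NRF1 (0.971%) or the RE1 core bound by Rest (0.0365%), each searched on both strands. With 6 promoters these matches describe the sequences and carry no test.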

How the data were processed

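Poly(A) RNA of 3 iRGC and 3 cRGC samples was analysed. The ATAC-seq samples were not analysed here. Per the study's methods and the submitters' processing notes, the authors aligned reads to mm10 with HISAT2 2.1.0 and deposited unnormalized HTSeq 0.11.1 counts per Ensembl gene of GRCm38. The strand setting of the counting is not given in the sources used here. HTSeq's tallies that name no gene (8.09% to 16.8% of tallied alignments overlapped no gene) were left out. Symbols, positions and exon lengths came from GENCODE M21 for 46574 of 47069 genes. Replicates differed beyond sampling noise in every pair.

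Counts were tested in edgeR 4.0.16 (R 4.3.3) with TMM scaling and the quasi-likelihood test, with no block, on the 15941 genes that filterByExpr kept, and p-values were adjusted over all of them by Benjamini-Hochberg. Genes were called at an adjusted p under 0.1, the study's false discovery rate. SEs are the absolute log2 fold change over the square root of F. The biological coefficient of variation was 36.3%. Subunit shares and ratios were formed within libraries from CPM per kb of the union of exons and compared by two-sided exact permutation tests. The script was tested on simulated data, with 200 genes changed by known folds.

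The 9 members, the lists and the tests were chosen with earlier results of these data known. Named genes were the members, Grid1, Slc17a6, Neto1, Neto2 and the deaminases, from each other role list the called genes with the largest fold changes, up to 4 per direction, and the 4 genes most like Gria2 and Gria1. Cacng4, Cnih3, Shisa8, Shisa9 and the label genes were named after their values were seen. Some genes that the rule names are not reported here. Klhl17 was listed but not matched. Alternatives were DESeq2 1.42.0 size factors, upper quartile factors and pan-neuronal scaling, DESeq2, limma 3.58.1 voom, other filters and thresholds, a replicate block, each library left out in turn, and other lengths.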

Additional observations from a re-analysis of the deposited data

How the results depend on the processing

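Scaling was the choice that mattered most. On the pan-neuronal genes 12492 genes were called, with 0.445% of all tested genes lower and 77.9% higher. Among them 1 member was lower and 5 were higher, and 0 role genes were lower and 31 higher. The log2 fold changes became -0.11 for Gria2, 1.05 for Gria3, 0.39 for Gria4, 0.44 for Grik1, 0.77 for Grik2, 1.70 for Grik3, 0.78 for Grik4, 1.04 for Grik5, 0.72 for Grid1, 1.79 for Neto2, 0.93 for Adar and 0.97 for Adarb1. Under all other alternatives the 8 called members stayed lower, with between 6 and 8 of them called. Gria3 was not called with no filter on low counts (-0.79, adjusted p = 0.123 in edgeR), and its log2 fold change ranged from -0.89 to -0.68 with 1 library left out, with adjusted p-values from 0.0381 to 0.194. That of Grik1 ranged from -1.43 to -1.30, with adjusted p-values from 0.0278 to 0.114, and that of Grik3 from -0.28 to 0.07, with adjusted p-values from 0.354 to 0.945. Requiring an absolute log2 fold change above 1 left 3688 genes called. With counts not divided by length, the differences in share (iRGC minus cRGC, in percentage points) were -7.53 for Gria1, -3.98 for Gria2, -3.12 for Grik2 and 4.51 for Grik3, and that in the kainate to AMPA ratio was 0.80. With the longest coding transcript they were 2.71 for Gria3 and -0.623 for Grik1. Same-numbered libraries did not deviate together over all genes (r = -0.0121, -0.0237 and -0.055). Such a correlation cannot tell whether same-numbered samples shared a litter or a sort, so pairing by number was not settled. The replicate block called 6751 genes in place of 7395 and the same number of members, 8.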

Other observations

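The genes whose log2 CPM (with a prior count of 2) followed those of the leading AMPA subunits most closely over the 6 libraries were looked up among 10274 genes with a mean of at least 10 CPM. For Gria2 they were Tmod2, a tropomodulin of neurons (Pearson r = 0.9998), Caskin1 (0.9994), Prrt1 (0.9992) and March2 (0.9992). Prrt1 is also among the auxiliary subunits of AMPA receptors. For Gria1 they were Dclk1 (0.9997), P2rx3, an ATP-gated channel (0.9997), Dcx (0.9996) and Gnb1 (0.9995). Their log2 fold changes were -1.71, -1.28, -2.32 and -1.08 in the first group and -1.69, -2.13, -1.98 and -0.73 in the second. With 3 libraries in each of 2 separated populations, such a value mainly records the difference between the populations, so it is given as a description with no p.

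Among other cell types, markers of photoreceptor precursors were higher in iRGCs for 7 of 8 tested genes and lower for 1, and their sum was 1108, 874 and 907 CPM in iRGCs and 228, 342 and 275 CPM in cRGCs. Markers of amacrine and horizontal cells, which also carry AMPA and kainate receptors in the mature retina, were higher for 8 of 13 and lower for 0. Of 6 bipolar cell markers, 3 were tested and 1 was higher in iRGCs, Trpm1, which had 6.14, 17.8 and 0.694 CPM in iRGCs and 1.23, 1.04 and 0.290 CPM in cRGCs. Prkca, the most abundant of them, was not called, at 32.9, 22.5 and 32.3 CPM in iRGCs and 29.95, 32.8 and 23.0 CPM in cRGCs, and Vsx1, Grm6 and Scgn were at 0 in all 3 cRGC libraries. Endothelial markers summed to 438, 636 and 433 CPM in iRGCs and 87.6, 108 and 71.7 CPM in cRGCs, with Cdh5 and Tie1 at 0 in cRGCs. Kdr alone gave 366, 321 and 418 CPM of the iRGC sums. Some of the others differed widely among the iRGC libraries, with Cdh5 at 15.3, 81.3 and 0.158 CPM, Pecam1 at 9.65, 53.0 and 0.284 CPM and Tie1 at 2.70, 44.1 and 0.0631 CPM, so that for these 3 genes replicate 2 was highest and replicate 3 near 0, whereas Cldn5 was at 26.0, 25.2 and 11.8 CPM and Egfl7 at 1.64, 24.5 and 2.68 CPM. Microglial markers summed to 16.1, 22.3 and 14.9 CPM and 0.577, 4.00 and 2.07 CPM. Of 6 markers of optic stalk astrocytes, 2 were tested, and 1 of these was lower. The calls in this paragraph hold for TMM scaling, where 23.1% of all tested genes were lower and 23.3% higher. On the pan-neuronal scaling 8 photoreceptor precursor markers, 12 amacrine and horizontal cell markers, 3 bipolar cell markers and 1 astrocyte marker were higher. In these lists 0 were lower on that scaling, where 77.9% of all tested genes were higher. The part of these cells in the receptor values was not tested.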
